A study of Mus musculus with 9 samples.

Results

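The genes described here encode the carriers and pumps that move organic anions, organic cations and drugs across cell membranes. They were taken as every entry of the expression table whose symbol starts with Slc22a, Slco, Slc47a or Abcc, together with Abcb1a, Abcb1b and Abcg2. Slc22a4, Slc22a5 and Slc22a21, which carry carnitine and its relatives, were left out. This gave 53 of 23420 genes: 28 of anion uptake, 6 of the cation route, 13 of the efflux class and 6 other Slc22a entries. The efflux class holds 11 ATP-driven pumps and the relatives Abcc8 and Abcc9, which regulate potassium channels. A gene was tested when its mean over the 9 libraries reached 10 normalized counts, which left 42 of the 53 and 15098 genes in all.

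RNA was sequenced from kidney cortex, in pieces of about 50 mg, of male C57/BL6 mice on chow. The fed group (5 mice, Fed 1 to Fed 5) ate freely, and the fasted group (4 mice, Fasted 1 to Fasted 4) had no food for 16 h before death. Each library comes from 1 mouse, and the labels name no transgene, mutation, drug, age, litter or batch. The comparison asks how a fast of this length changes the transcripts of the cortex.

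In the proximal tubule, waste products and drugs leave the blood in steps. Organic anions enter the cell from the blood side through Slc22a6 and Slc22a8 (OAT1 and OAT3), which exchange them for a dicarboxylate held at high concentration in the cell, and leave into the urine through pumps such as Abcc2, Abcc4 and Abcg2. Organic cations enter through carriers such as Slc22a2 and leave through the proton exchanger Slc47a1. Some members work in the opposite direction: Slc22a12 (URAT1) on the brush border takes urate back from the urine.

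Levels are normalized counts, which are reads divided by the size factor of the library, given as the group mean ± SD (n = 5 fed, n = 4 fasted). Each change is the fasted minus the fed mean of log2(value + 1), with its standard error (SE). A gene was called when its limma p, adjusted by Benjamini-Hochberg over all 15098 genes, was under 0.05. The libraries held between 18902645 and 32469467 reads, which makes 1 read worth 0.744 to 1.32 normalized counts. Ribosomal RNA made up 5.53% of the values in Fed 3 and 2.36% in Fasted 1, against 0.513% to 1.38% in the others. Summed proximal tubule markers lay between 458301 and 661417 in the fed and between 405670 and 469419 in the fasted libraries, with 2 of 10 markers lower and none higher. Only Fed 5 among the fed libraries lay inside the fasted range. In bulk tissue, fewer cells of a type and less RNA per cell cannot be told apart.

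Of the best known carriers of drug secretion, Slc22a6, Slc22a8, Slc22a2, Slc47a1, Abcc2 and Abcg2 did not pass the test, while Abcc4 and several relatives did. The changes that passed were 3 increases (Slc22a12, Abcc4 and Slc22a14) and 6 decreases (Slc22a28, Slc22a29, Slc22a22, Slc22a18, Abcc6 and Slc22a23). That is 7.14% of the 42 tested genes higher, where 5.72% of all genes were higher, and 14.3% lower, where 5.25% of all genes were. The other 33 did not pass. An unadjusted p under 0.05 was found for 19 of the 42, and for 4052 of all 15098 genes. The median log2 change over the 42 genes was 0.12, against 0.0009 over all genes. Without overlap between the groups, 4 of the 42 were higher (9.52%, against 7.62% of all genes) and 3 lower (7.14%, against 6.64%).

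**Figure D1:**
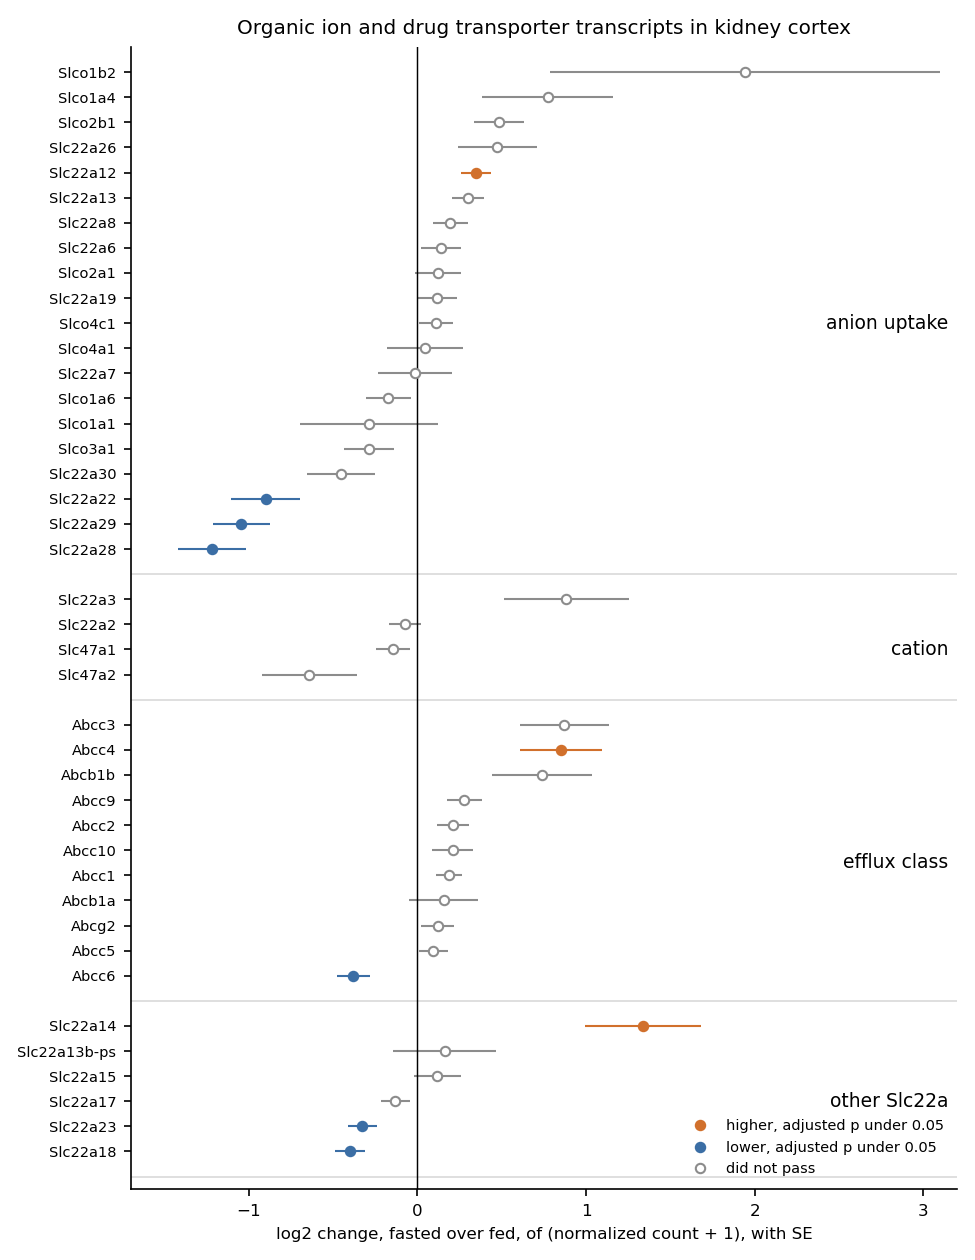
Log2 change, fasted over fed, of the tested transporter genes reported here, by class, with the SE as a bar; filled points passed (3 higher, 6 lower) and open points did not. Slco1b2 has the largest change and the widest bar, and the anion uptake genes Slc22a28, Slc22a29 and Slc22a22 are the furthest to the left.

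The largest decreases lay in a row of Slc22a genes on chromosome 19. Slc22a19, Slc22a26, Slc22a27, Slc22a28, Slc22a29 and Slc22a30 lie there in this order on the minus strand, the first starting at position 7673061 and the last ending at 8405111 (GENCODE M21 on GRCm38). They belong to the organic anion branch of the family. Slc22a19, also known as OAT5, sits on the brush border and carries steroid sulfates, while the substrates of several of its neighbours are poorly known. Bases upstream of the gene start are shown for 3 of them, because Slc22a28 and Slc22a30 are almost the same there and the first was called while the second was not. The sequences are from RefSeq on GRCm38.p6, minus strand, read 5′ to 3′ and ending 1 base before the RefSeq start. The GENCODE start of Slc22a30 lies further upstream, so that the last 6 bases shown for it are inside the GENCODE gene. Capitals mark bases that differ from the aligned base of Slc22a28 or have no partner in it, and bases beyond the aligned stretch stay in lower case.
Slc22a28, chr19:8131983-8132182: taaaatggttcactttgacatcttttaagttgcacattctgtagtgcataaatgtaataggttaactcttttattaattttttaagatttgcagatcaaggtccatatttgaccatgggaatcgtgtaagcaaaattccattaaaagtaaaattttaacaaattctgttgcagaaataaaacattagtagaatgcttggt
Slc22a30, chr19:8405106-8405305: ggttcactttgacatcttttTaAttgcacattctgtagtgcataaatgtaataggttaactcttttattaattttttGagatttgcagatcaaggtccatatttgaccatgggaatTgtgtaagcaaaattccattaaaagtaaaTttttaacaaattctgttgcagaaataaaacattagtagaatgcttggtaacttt
Slc22a29, chr19:8218901-8219100: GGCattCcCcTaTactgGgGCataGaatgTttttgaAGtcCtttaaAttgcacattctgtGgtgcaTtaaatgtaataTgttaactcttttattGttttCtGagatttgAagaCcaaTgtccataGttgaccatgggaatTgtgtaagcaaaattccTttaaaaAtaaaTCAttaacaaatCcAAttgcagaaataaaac
Over the 250 bases before the start, 238 of 244 aligned bases were the same in Slc22a28 and Slc22a30 (97.5%). For Slc22a28 and Slc22a29 it was 174 of 213 (81.7%), for Slc22a28 and Slc22a19 158 of 231 (68.4%), and for Slc22a28 and Slc22a26 131 of 207 (63.3%).

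Slc22a28 had 3057, 2895, 2423, 2984 and 1819 normalized counts in Fed 1 to Fed 5 and 1224, 1095, 1524 and 748 in Fasted 1 to Fasted 4. Every fasted mouse was below every fed mouse. The mean fell from 2636 ± 519 to 1148 ± 322, a log2 change of -1.22 (with SE 0.20, adjusted p = 0.00395). Slc22a29 is a much rarer transcript, with 112, 138, 88.1, 149 and 157 in the fed and 61.4, 59.1, 63.3 and 58.7 in the fasted mice. Its groups did not overlap either, and the fasted values were close together. It fell from 129 ± 28.5 to 60.6 ± 2.14 (-1.05 with SE 0.17, adjusted p = 0.00367). Both calls held in all 22 alternative settings, among them leaving out each library, at an adjusted p of at most 0.0193 for Slc22a28 and 0.0155 for Slc22a29.

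Slc22a30, whose upstream bases match those of Slc22a28, did not pass. It had 2634, 2646, 2373, 2823 and 1923 in the fed and 1839, 2108, 2439 and 1089 in the fasted mice (log2 change -0.46 with SE 0.20, adjusted p = 0.175). Here the groups overlapped, and Fasted 4 was the lowest. The difference between the changes of Slc22a28 and Slc22a30 was not tested. These genes also share coding sequence: 53.3% of the 50-base windows of Slc22a28 transcripts occur in Slc22a30, and 31% of those of Slc22a30 in Slc22a28. How the counting treated such reads is not given in the sources used here, so the values of each gene alone are uncertain. Added together, they had 5691, 5541, 4796, 5807 and 3742 in the fed and 3063, 3203, 3963 and 1837 in the fasted mice, so that only Fasted 3 exceeded the lowest fed mouse, Fed 5. Slc22a29 shares 28.7% of its windows with other genes, 23% with Slc22a27.

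The other genes of the row did not pass. Slc22a19 had 2768 ± 406 in the fed and 2994 ± 370 in the fasted group (log2 change 0.12, adjusted p = 0.565). Slc22a26 had 346 ± 80.5 and 496 ± 197 (0.47, adjusted p = 0.222), with 780 in Fasted 3 and 342 to 475 in the other fasted mice. Slc22a27 had between 4.80 and 20.5 normalized counts in any library and was under the limit for testing.

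**Figure D2:**
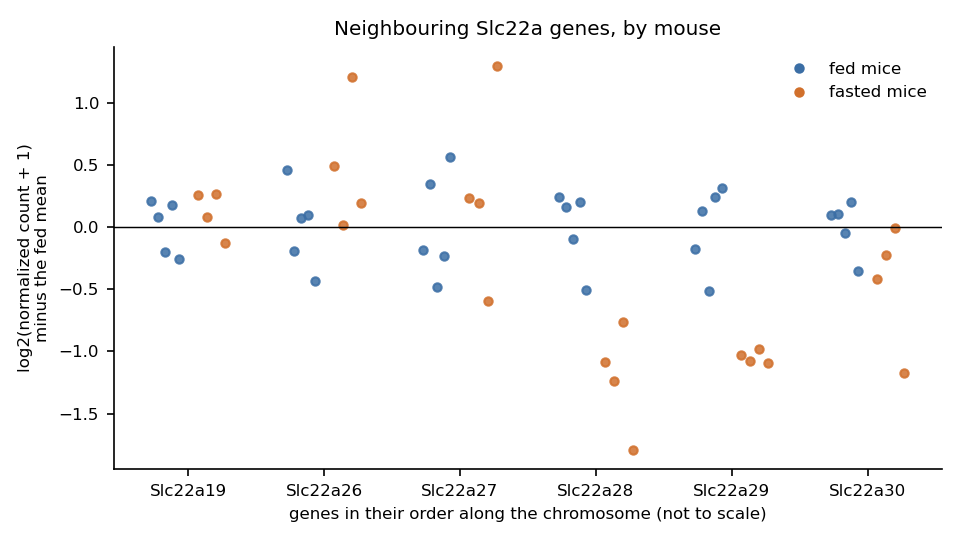
Log2(normalized count + 1) of 6 neighbouring Slc22a genes in each mouse, minus the mean of the fed mice, in their order along the chromosome. Slc22a28 and Slc22a29 are lower in every fasted mouse, Slc22a30 overlaps, and Slc22a27 was too low to be tested.

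Slc22a22, on chromosome 15, encodes a carrier of prostaglandins in the proximal tubule. It had 2913, 2688, 2255, 3529 and 1719 in the fed and 1428, 1306, 1822 and 1018 in the fasted mice. Only the pair of Fed 5 and Fasted 3 was out of order. The mean fell from 2621 ± 683 to 1394 ± 333 (log2 change -0.90 with SE 0.20, adjusted p = 0.0181). Without Fasted 4 the change was -0.76 and did not pass (adjusted p = 0.0588). Fed 5 had the lowest fed value of Slc22a22, Slc22a28, Slc22a30 and Slc22a18 and the lowest fed sum of proximal tubule markers, and the part of tubule content in these decreases was not tested.

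Slc22a6 and Slc22a8, which bring organic anions into the cell from the blood, had high levels and were not called. Slc22a6 had 21554, 23822, 19098, 24270 and 19703 in the fed and 21428, 29236, 25032 and 20287 in the fasted mice. Fasted 2 and Fasted 3 were above every fed mouse, and the others lay inside the fed range (log2 change 0.14 with SE 0.12, adjusted p = 0.499). Slc22a8, its neighbour on chromosome 19, had 8281, 8403, 11506, 10938 and 9883 in the fed and 10627, 11236, 11417 and 11216 in the fasted mice (0.19 with SE 0.10, adjusted p = 0.25). The fasted values lay within the fed range. The log2 ratio of Slc22a6 to Slc22a8 was 1.15 ± 0.31 in the fed and 1.10 ± 0.22 in the fasted group, a difference of -0.06 (SE 0.18; exact permutation test, two-sided, p = 0.754, adjusted over 4 pairs 0.754). Of the other anion uptake carriers, Slc22a7 (OAT2) had 3097 ± 797 and 3053 ± 778. Slco4c1, a carrier of digoxin and thyroid hormone, had 963 ± 66.0 and 1047 ± 157, and neither was called.

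On the brush border, Slc22a12 was the most abundant member per length of transcript. It had 39653, 40142, 35438, 37821 and 33223 normalized counts in the fed and 44976, 51183, 48389 and 44512 in the fasted mice. All fasted mice were above all fed mice. The mean rose from 37255 ± 2914 to 47265 ± 3132 (log2 change 0.34 with SE 0.09, adjusted p = 0.0313). The direction held in all 22 alternative settings and the call in 12, and without 6 single libraries the adjusted p lay between 0.0522 (Fed 3) and 0.0814 (Fasted 3). The other 4 of these libraries were Fed 1 (0.0536), Fasted 4 (0.0592), Fasted 1 (0.0594) and Fasted 2 (0.0807). Slc22a13 (OAT10), which takes up nicotinate and urate, had 1261, 1486, 1285, 1605 and 1489 in the fed and 1820, 1485, 1922 and 1801 in the fasted mice. It did not pass (0.30 with SE 0.10, adjusted p = 0.0685). Only Fasted 2 lay inside the fed range. In the authors' deposited table its adjusted p was 0.0311.

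The Slco family, which carries bile acids, steroid conjugates, thyroid hormone and drugs, had no call. Of all genes, 5.72% were higher and 5.25% lower, so no call among so few genes is not a test of the family. Slco1a1, known to depend on androgen in mouse kidney, had 6395, 10570, 5695, 7281 and 4163 in the fed and 6284, 9074, 7572 and 1882 in the fasted mice (log2 change -0.29 with SE 0.41, adjusted p = 0.70). Fasted 4 was the lowest of all mice, and without it the change was 0.22. Slco1a6 had 7529 ± 814 and 6771 ± 1520, and Slco3a1 5534 ± 1023 and 4535 ± 806. Slco2b1, an uptake carrier of steroid sulfates and drugs, had 1184, 1550, 1143, 816 and 1389 in the fed and 1638, 1634, 1724 and 1663 in the fasted mice. The groups did not overlap, but the gene did not pass (0.48 with SE 0.15, adjusted p = 0.0621). The prostaglandin carrier Slco2a1 had 817 ± 179 and 872 ± 43.4, and Slco4a1 296 ± 73.5 and 310 ± 102. Slco1a4 had 446 in Fasted 2 and 64.5 to 116 in the 8 other libraries (log2 change 0.77, adjusted p = 0.233), and without Fasted 2 the change was 0.26. The authors' deposited table gives no p for it.

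Slco1b2 had the largest log2 change of the 42 genes and did not pass (1.94 with SE 1.16, adjusted p = 0.312; 1.12 without Fed 1 and 1.29 without Fed 5). It is the main bile acid and drug carrier of the hepatocyte. It had 1.49, 210, 68.4, 56.9 and 2.98 normalized counts in the fed and 67.9, 51.4, 152 and 137 in the fasted mice. Fed 1 and Fed 5 stood far below the 7 other libraries. The summed level of 8 hepatocyte markers was 2907, 20747, 9970, 6915 and 2778 in the fed and 8073, 5926, 14441 and 14884 in the fasted mice. It was lowest in the same libraries, Fed 1 and Fed 5, and highest where Slco1b2 was, in Fed 2. None of the 8 markers was called and none was at 0. With log2 Alb, the albumin transcript and itself among the 8 markers, as a covariate the log2 change of Slco1b2 was 0.28 (adjusted p = 0.544). The part of hepatocyte RNA in the Slco1b2 values was not tested.

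**Figure D3:**
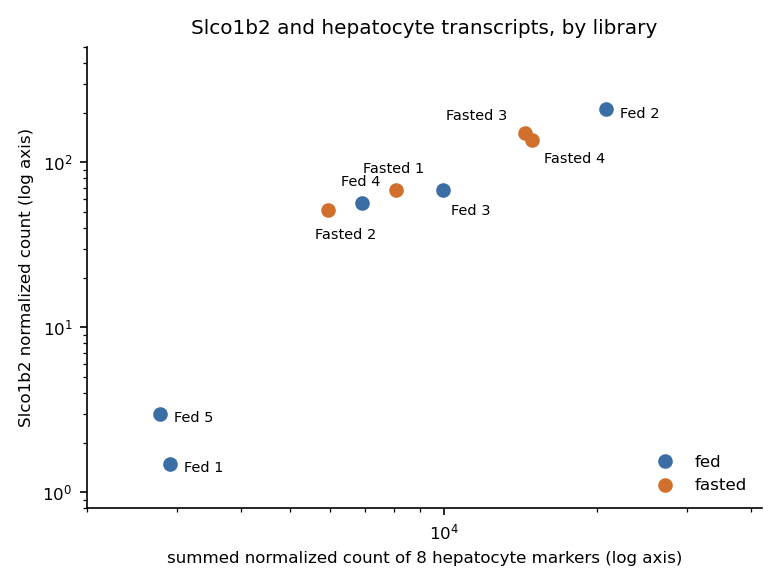
Normalized count of Slco1b2 against the summed normalized count of 8 hepatocyte markers in each library, on log axes. Fed 1 and Fed 5 have 1.49 and 2.98 normalized counts of Slco1b2 at the lowest marker sums, and Fed 2 has 210 at the highest.

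In the cation route none of the 5 tested genes passed, where 5.72% of all genes were higher and 5.25% lower. At these shares, no call among 5 genes is not a test of the cation route as a class. Slc22a2 (OCT2) had 7714, 8306, 8602, 8296 and 6270 in the fed and 7238, 7030, 8293 and 7090 in the fasted mice (log2 change -0.07 with SE 0.10, adjusted p = 0.663). Slc47a1 (MATE1), the luminal exit, had 20090, 19669, 16351, 21455 and 16413 against 17869, 17423, 17690 and 14839 (-0.14 with SE 0.10, adjusted p = 0.397). The groups overlapped in both genes. Low levels were found for Slc22a3 (OCT3), 21.2 ± 8.25 and 41.6 ± 18.6 (log2 change 0.88, adjusted p = 0.153), and Slc47a2, 22.1 ± 6.54 and 13.8 ± 4.65 (-0.64, adjusted p = 0.173). By unadjusted p these were the 2 cation genes under 0.05.

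Of the 11 tested genes of the efflux class, 10 had a positive log2 change, as had 7579 of all 15098 genes. Only 1 of the 11 was called higher (9.09%, against 5.72% of all genes). The only gene with a negative change was called lower (9.09%, against 5.25%). The median log2 change of the 11 was 0.21, against 0.0009 over all genes. Without the channel regulator Abcc9, 9 of 10 were positive and the median was 0.20. Abcc4 (MRP4), which exports urate, cyclic nucleotides and many anionic drugs into the urine, had 2159, 2092, 2307, 2692 and 3366 in the fed and 3893, 3975, 3164 and 8252 in the fasted mice. Only Fasted 3 lay inside the fed range, and Fasted 4 had more than any other mouse. The mean rose from 2523 ± 525 to 4821 ± 2316 (log2 change 0.85 with SE 0.24, adjusted p = 0.0461). The direction held in all 22 alternative settings and the call in 11. Without Fasted 4 the change was 0.56 (adjusted p = 0.0612), and it was also lost without Fed 1 (0.103), Fed 2 (0.0935), Fed 3 (0.0785), Fed 4 (0.0638), Fasted 1 (0.0731) or Fasted 2 (0.0760).

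Abcc3 (MRP3), which pumps conjugates out on the blood side, had 62.5, 137, 81.6, 112 and 96.5 in the fed and 144, 145, 146 and 299 in the fasted mice. The groups did not overlap, and Fasted 4 was again the highest. Without Fasted 4 the log2 change was 0.61. The gene did not pass (log2 change 0.87 with SE 0.26, adjusted p = 0.0578), and in the authors' deposited table its adjusted p was 0.00872. Abcb1b had 255, 260, 301, 456 and 532 against 605, 427, 407 and 1047 (0.74 with SE 0.30, adjusted p = 0.139), and without Fasted 4 the change was 0.45. Abcb1a had 185, 200, 254, 280 and 363 against 300, 285, 202 and 340 (0.15 with SE 0.20, adjusted p = 0.668). Both encode P-glycoprotein in the mouse, and they share 16.3% of the 50-base windows of Abcb1a and 11.1% of those of Abcb1b. The log2 ratio of Abcb1a to Abcb1b went from -0.47 ± 0.17 to -1.05 ± 0.43, a difference of -0.58 (SE 0.23) that did not pass (exact permutation test, two-sided, p = 0.0159, adjusted 0.0635).

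Abcc2 (MRP2), the most abundant pump per length in the fed mice, had 15527, 16881, 17620, 18641 and 19341 in the fed and 18620, 23811, 18918 and 20269 in the fasted mice (log2 change 0.21 with SE 0.09, adjusted p = 0.181). Its log2 ratio to Abcc4 was 2.82 ± 0.19 in the fed and 2.18 ± 0.61 in the fasted group, a difference of -0.64 (SE 0.32; -0.35 without Fasted 4) that did not pass (exact permutation test, two-sided, p = 0.0317, adjusted 0.0635). The smallest p that 126 regroupings can give is 0.00794. Abcg2 (BCRP), a urate and drug exporter, had 16102, 15982, 13247, 16527 and 13132 against 15328, 17781, 17060 and 14856 (0.12 with SE 0.10, adjusted p = 0.46). The groups overlapped for both pumps.

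Abcc6, whose loss in people leads to calcification of soft tissue, was the pump that fell. It had 578, 657, 797, 748 and 757 in the fed and 525, 522, 527 and 589 in the fasted mice. Only Fed 1 and Fasted 4 were out of order. The mean went from 708 ± 88.6 to 541 ± 32.1 (log2 change -0.38 with SE 0.10, adjusted p = 0.0313), a call that held under 14 of 22 alternative settings and failed without Fed 3 (0.0506), Fed 4 (0.0600), Fed 5 (0.0514), Fasted 1 (0.0800), Fasted 2 (0.0746) or Fasted 3 (0.0780). Abcc1, Abcc5 and Abcc10 had log2 changes of 0.19, 0.09 and 0.21 and did not pass (adjusted p = 0.142, 0.515 and 0.305). Abcc9, which is a regulator of potassium channels and not a pump, had 1157 ± 129 and 1404 ± 166 (0.28, adjusted p = 0.11).

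**Figure D4:**
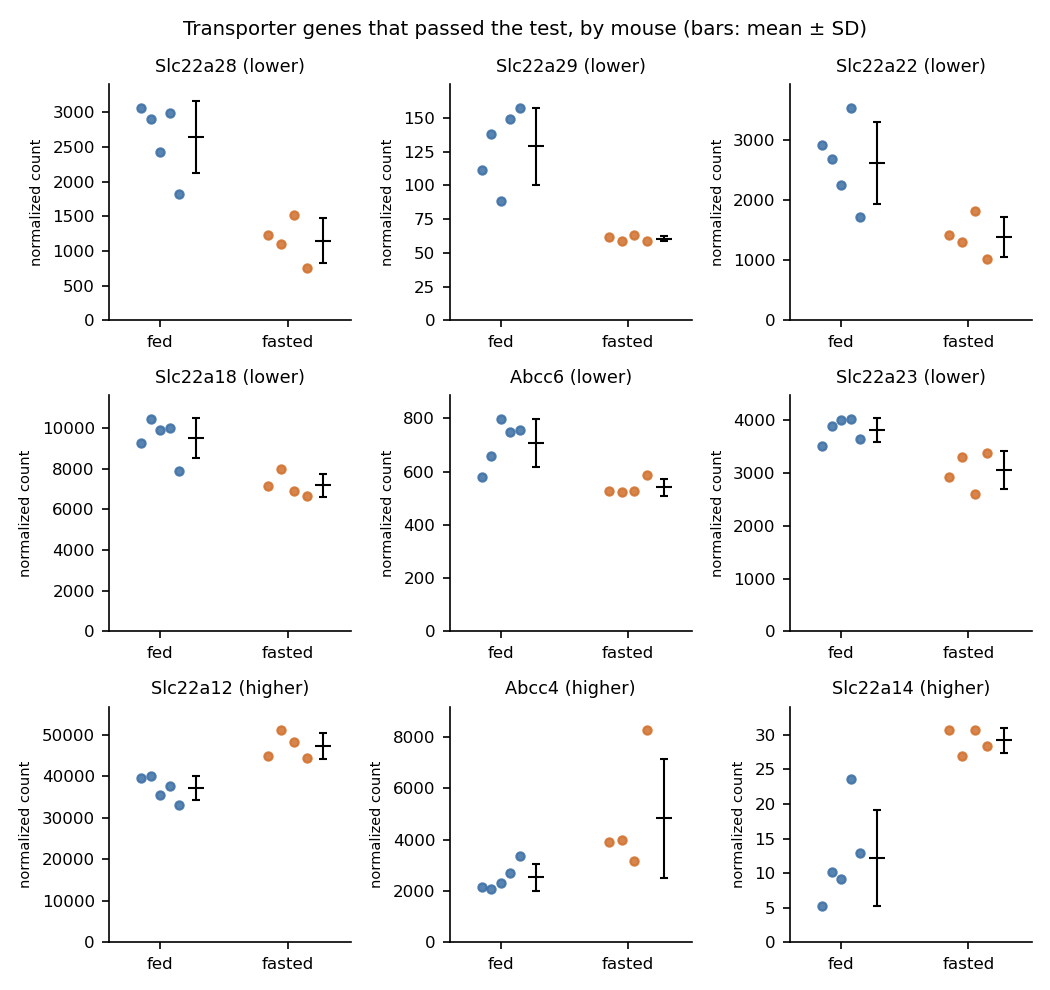
Normalized counts of the 9 transporter genes that passed, 1 panel each, with 1 point per mouse and the mean ± SD beside the points. In Slc22a28, Slc22a29, Slc22a23, Slc22a12 and Slc22a14 the groups do not overlap, and in Abcc4 the highest fasted point, 8252, is Fasted 4.

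Of the 6 Slc22a entries outside these routes, 1 rose (16.7%, against 5.72% of all genes) and 2 fell (33.3%, against 5.25%). Slc22a18, an imprinted gene whose substrates are not well known, had 9248, 10447, 9902, 9999 and 7906 in the fed and 7150, 7989, 6928 and 6677 in the fasted mice. Only Fed 5 and Fasted 2 were out of order. The mean fell from 9500 ± 989 to 7186 ± 569 (log2 change -0.40 with SE 0.09, adjusted p = 0.0172), a call lost without Fasted 3 (0.0523) or Fasted 4 (0.0618). Slc22a23, an orphan member, had 3509, 3895, 4003, 4019 and 3645 in the fed and 2924, 3309, 2600 and 3381 in the fasted mice, with no overlap. It fell from 3814 ± 227 to 3053 ± 363 (-0.33 with SE 0.08, adjusted p = 0.0316), a call that failed without Fed 2 (0.0676), Fed 3 (0.0524), Fed 4 (0.0600), Fasted 1 (0.0848) or Fasted 3 (0.0823).

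Slc22a14, known as a riboflavin carrier of sperm, is a rare transcript here. It had 5.21, 10.1, 9.21, 23.6 and 12.9 in the fed and 30.7, 27.0, 30.7 and 28.5 in the fasted mice, with no overlap. It rose from 12.2 ± 6.95 to 29.2 ± 1.81 (log2 change 1.34 with SE 0.34, adjusted p = 0.0301). The call was lost without each library other than Fed 4 and Fed 5, at an adjusted p between 0.0511 (Fed 1) and 0.0793 (Fasted 4). Its annotated span, chromosome 9 from 119169455 to 119365553 on the minus strand, holds the whole of Slc22a13 and Slc22a13b-ps on the same strand. None of the 2424 distinct 50-base windows of its GENCODE M21 transcripts occurs in another gene. Which annotation the authors counted with is not given, so which reads its count holds is not known. Slc22a17, the lipocalin receptor, Slc22a15, a carrier of zwitterions, and Slc22a13b-ps, a pseudogene that shares 49.9% of its windows with Slc22a13, had log2 changes of -0.13, 0.12 and 0.16 and did not pass (adjusted p = 0.363, 0.625 and 0.778).

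Per kilobase of annotated exon, the fed order of the routes was led by Slc22a12, with 16463 ± 1288 normalized counts per kb. Slc22a18 (5592 ± 582), Slc47a1 (5556 ± 680) and Slc22a6 (5445 ± 587) followed and did not differ beyond their spread. Slc22a2 had 3156 ± 376 and Slc22a8 2507 ± 372 per kb. Abcc2 (2063 ± 175), Slco1a6 (1977 ± 214) and Abcg2 (1840 ± 204) lay within each other's spread. Abcc4 had 395 ± 82.2 per kb. The P-glycoprotein genes Abcb1a and Abcb1b lay close to each other in the fed mice, with means of 46.8 and 45.2 per kb. In the fasted mice Slc22a12 again led, with 20886 ± 1384 per kb, Abcb1a had a mean of 51.5 and Abcb1b had 77.8 ± 37.3.

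**Figure D5:**
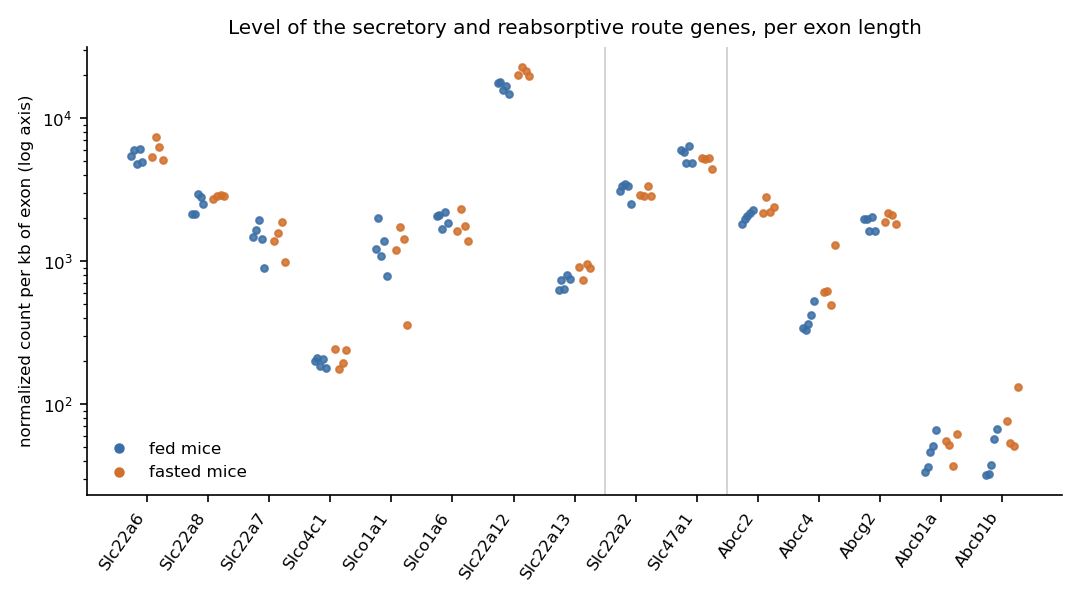
Normalized counts per kb of annotated exon for genes of the transport routes, on a log axis, with 1 point per mouse. The vertical lines divide the anion carriers, the cation route and the efflux pumps; Slc22a12 lies highest, and Abcc4 has 1 fasted point, Fasted 4, far above the rest.

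The 11 members under the limit for testing were Slc22a16, Slc22a20, Slc22a27, Slco1a5, Slco1c1, Slco5a1, Slco6b1, Slco6c1, Slco6d1, Abcc8 and Abcc12. Slc22a20 and Slco6d1 were at 0 in all libraries, and Slc22a16 and Slco6c1 had 1.32 normalized counts, which is 1 read, in Fed 3 alone. The highest group means among the 11 were those of Slc22a27 (8.09 ± 2.81 fed, 10.9 ± 6.70 fasted) and of the channel regulator Abcc8 (5.94 ± 2.62 and 9.23 ± 3.76).

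Upstream windows of 300 bases around the gene start were found in RefSeq for 43 of the 53 members and 8 of the 9 called ones. They were searched on both strands for CACGTG (the E-box bound by clock factors, present in 7.15% of 32851 windows), TGACNNNGC (the antioxidant response element core, 12.4%), the nuclear receptor repeat of AGGTCA, any base, AGGTCA (0.0396%) and the steroid receptor palindrome of AGAACA, any 3 bases, TGTTCT (0.00913%). Among called members, Abcc4 alone held CACGTG and TGACNNNGC. Of all 43, 3 held the first and 9 the second, and none held the last pair. Among the 9 were Abcc2 and Abcb1a, and the untested Slc22a20, Slc22a27, Slco6b1 and Slco6d1. A member was counted when any of its windows held the motif, so these counts cannot be set directly against the percentages of windows.

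Of a list of 29 genes that work with these transporters, 6 rose (Slc13a3, Slc16a9, Hnf4g, Nr1i2, Nr1h4 and Xdh), 3 fell (Slc9a3r1, Pdzk1 and Slc10a2) and 20 did not pass. That is 20.7% higher, against 5.72% of all genes, and 10.3% lower, against 5.25%. Because the list was chosen with earlier results of these data known, its shares are not a test of such genes as a group. Among 4 genes of the scaffold that holds brush border carriers in place, 2 fell (50%, against 5.25% of all genes). So few genes from this chosen list are not a test of the scaffold. Slc9a3r1 (NHERF1) had 4653, 4426, 5624, 5362 and 4242 in the fed and 2675, 3250, 3144 and 2839 in the fasted mice, without overlap (log2 change -0.70 with SE 0.10, adjusted p = 0.00139). Pdzk1, which binds Slc22a12 and other carriers, fell from 27394 ± 4958 to 18678 ± 1808 (-0.54 with SE 0.14, adjusted p = 0.0337). Its call held in 13 of 22 alternative settings and was lost without each library other than Fed 5 and Fasted 3, at an adjusted p of up to 0.106. The 2 other scaffold genes, Slc9a3r2 (log2 change 0.24, adjusted p = 0.176) and Ezr (-0.21, adjusted p = 0.144), did not pass.

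Slc13a3, the dicarboxylate carrier that supplies the exchange partner of Slc22a6 and Slc22a8, rose from 15509 ± 1658 to 20579 ± 2197 without overlap (log2 change 0.41 with SE 0.10, adjusted p = 0.0237), a call that failed without Fed 1 (0.0576) or Fasted 3 (0.0677). Its luminal relative Slc13a2 had 793 ± 230 and 1246 ± 259 and did not pass (adjusted p = 0.0888). Slc10a2, the luminal bile acid carrier, fell from 1501 ± 185 to 703 ± 233 (-1.14 with SE 0.19, adjusted p = 0.00391), with every fasted mouse below every fed mouse. Xdh, the enzyme that makes urate, rose from 1313 ± 237 to 2194 ± 174 (0.75 with SE 0.12, adjusted p = 0.00316), also without overlap. Slc16a9, a carnitine carrier, rose by 0.25 (SE 0.07, adjusted p = 0.0448), a call that held in 11 of 22 alternative settings. Other urate carriers did not pass: Slc2a9 had 752 ± 129 and 970 ± 150 (adjusted p = 0.108), Slc17a1 16658 ± 2165 and 19377 ± 1688 (adjusted p = 0.199), and Slc17a3 11712 ± 3329 and 8837 ± 2288 (adjusted p = 0.343).

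Among 11 transcription factors that are known to act on these genes, 3 rose (27.3%, against 5.72% of all genes) and none fell (against 5.25%). These 11 belong to the same list, chosen with earlier results of these data known. Nr1h4 (FXR, the bile acid receptor) rose from 3594 ± 474 to 4917 ± 541 (log2 change 0.46 with SE 0.10, adjusted p = 0.019; 0.063 without Fasted 4). Hnf4g rose from 456 ± 47.7 to 608 ± 43.1 (0.42 with SE 0.09, adjusted p = 0.0146). Nr1i2 (PXR, the drug sensor) rose from 223 ± 25.6 to 328 ± 70.8 (0.53 with SE 0.14, adjusted p = 0.0367), a call that held in 13 of 22 alternative settings and was lost without 6 single libraries, at an adjusted p between 0.0552 (Fed 5) and 0.115 (Fasted 4). Nr1i3 (CAR), the other drug sensor, had 26.5 ± 13.2 and 63.6 ± 11.3 without overlap and did not pass (1.42 with SE 0.42, adjusted p = 0.0539). Ppara (adjusted p = 0.0554), Nfe2l2 (0.149), Ahr (0.288) and Hnf4a (0.453) did not pass either.

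In the authors' deposited table, adjusted p-values are given for 40 of the 53 members, of which 6 were under 0.05 with a positive and 6 with a negative fold change. All 9 genes called here are among these 12. The 3 others are Abcc3, Slc22a13 and Slco2b1, with log2 fold changes of 0.67, 0.29 and 0.40 in that table and adjusted p-values of 0.00872, 0.0311 and 0.0257. With limma the log2 changes of these 3 genes were 0.87, 0.30 and 0.48. The deposited fold changes come from a different fit and are not on the same scale. With DESeq2 on the recovered reads, Abcc3 had 0.91, Slc22a13 0.30 and Slc22a14 1.28, where the deposited values are 0.67, 0.29 and 0.75. The sizes of deposited and limma changes therefore cannot be set against each other.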

How the data were processed

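The authors deposited 1 table of kidney cortex RNA sequencing. Its sample columns hold a signal normalized by the authors, in which the read count of each gene was divided by a library size factor. The values above 0 come out as whole reads in 100% of cases, within 0.01 reads, so the reads could be recovered. The log2 fold changes, the score (fold change over its standard error), the p-value and the adjusted p-value in the deposited table are the authors' own. Per the submitters' processing notes, the tools were FastQC, TopHat2 2.0.9, HTSeq 0.9.1 and DESeq2, and the builds mm10 and hg19. The annotation and strand setting are not given in the sources used here.

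Fed and fasted mice were compared with limma 3.58.1 (trend option, two-sided, R 4.3.3) on log2 of the normalized count plus 1, for genes averaging at least 10. The scripts were tested on simulated data. Ratios of paired transporters were compared by exact permutation over the 9 libraries. Positions and exon lengths came from GENCODE M21 on GRCm38, where 53 of 53 members matched. Shared windows of 50 bases came from its transcripts, a length assumed here. Upstream sequences were aligned with Biopython 1.88. The members, gene lists and tests were chosen with earlier results of these data known. Named were all called members, the core genes of the routes, the 2 highest and 2 lowest changes of each class, and called partner genes. Alternatives were other filters, pseudocounts, scalings and thresholds, voom, edgeR 4.0.16 or DESeq2 1.42.0 on the recovered reads, log2 Alb as a covariate, and libraries left out. Other filters and thresholds leave the log2 change of a gene as it was, so they cannot change its direction. A call also cannot be lost at an adjusted p under 0.10. Counts of settings that kept a direction or call include these. The deposited annotation tables were not used here. The labels give no pairing, and whether the mice differ in batch is not known. Some genes that entered the tests and counts are not reported here by name.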

Additional observations from a re-analysis of the deposited data

Results flagged for a closer look

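In 7 of 84 groups (42 genes in the fed and the fasted mice) 1 mouse stood apart from the others by Dixon's test, and chance alone flags about 1 in 20 groups. All 7 were fasted mice and 4 were Fasted 4. In Fasted 4, Abcc3 had 299 normalized counts against 144 to 146 in the other fasted mice, Abcc4 had 8252 against 3164 to 3975, and Abcc6 had 589 against 522 to 527. Slc47a1 had 14839 in Fasted 4 against 17423 to 17869. In Fasted 2, Slco1a4 had 446 against 105 to 113, and Abcc9 had 1156 against 1466 to 1500. In Fasted 3, Slc22a2 had 8293 against 7030 to 7238.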

How the results depend on the processing

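The number of members called is sensitive to the processing, most of all for the increases. The 3 increases became 1 with all genes with a mean above 0 tested, 6 with DESeq2 on recovered reads, 6 at an adjusted p under 0.10, and 0 at an adjusted p under 0.01, with log2 Alb as a covariate, or without Fed 3 and Fasted 1 together. The 6 decreases became 2 without Fed 3 and Fasted 1 together and 2 at an adjusted p under 0.01. With single libraries left out, the increases ranged from 0 (without Fed 1, Fed 3, Fasted 1 or Fasted 4) to 5 (without Fed 5) and the decreases from 3 (without Fasted 3) to 6. The cause was not tested. The sign of some log2 changes moved. Slc22a7 had 0.10 without Fed 3 and Fasted 1 together and -0.18 to 0.16 with single libraries left out. With single libraries left out, Slc22a13b-ps had -0.030 to 0.35 and the Slc22a6 to Slc22a8 ratio -0.16 to 0.031. Slco1a1, at -0.29 with all libraries, had -0.54 to 0.22 and was positive only without Fasted 4. The ratios of Abcb1a to Abcb1b and of Abcc2 to Abcc4 kept their direction in 11 alternatives each. With a library left out fewer regroupings are possible, so their p-values there say nothing on stability. No paired analysis was possible because the labels give the mice no shared numbers or litters. Members with a few reads per library could not be compared at this depth.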
